A study of Mus musculus with 12 samples.

Results

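Bach2 and Satb1 were examined as 2 loci bound by FoxP3, using FoxP3 ChIP-seq peaks whose summit lay on chr4:32200000-32700000 (Bach2) or chr17:51800000-52050000 (Satb1) in mm9 coordinates. Joining peaks that shared 1 bp or more across libraries gave 52 regions at Bach2 and 30 at Satb1, together 82 of the 24765 regions and 193 of the 53228 peaks in the 6 lists. The A384T libraries came from Treg cells of FoxP3A384T:hCD2 mice, whose FoxP3 carries the A384T substitution, and the WT libraries came from Treg cells of FoxP3WT:hCD2 mice. Both lines were C57BL/6J and carried the human CD2 reporter, and CD4+hCD2+ cells were taken by magnetic sorting from lymph nodes and spleen and were not treated. The labels give neither the age of the mice nor whether each replicate was a separate animal, so the p-values below speak only of the spread among these 6 libraries, and that spread may be technical. There were 3 ChIP libraries per genotype, and the peak lists hold no expression values against which the identity of the cells could be checked.

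FoxP3 is the forkhead transcription factor that maintains the identity of Treg cells, and A384T is a substitution in its DNA-binding forkhead domain that is also known from patients with the immune disorder IPEX. Bach2 encodes a transcriptional repressor with BTB and bZIP domains, which restrains effector programmes in T cells and is required for normal Treg cell formation. Satb1 encodes a DNA-binding protein of AT-rich sequences that organises chromatin in thymocytes, acts early in the Treg lineage, and is known to be repressed by FoxP3 in mature Treg cells. In the RefSeq gene order of GRCm38.p6, Bach2 lies between Map3k7 and Gja10, with Epha7 and Casp8ap2 next beyond them, and Satb1 lies between Tbc1d5 and Kcnh8, with Plcl2 and Efhb next beyond.

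A promoter of each gene, as RefSeq lists it in GRCm38.p6, is printed to show what forkhead-type letters the annotated starts hold. Capitals mark the short forkhead core TGTTT, or AAACA where it is on the other strand. The windows are chr4:32417185-32417484 on the plus strand and chr17:51812005-51812304 on the minus strand, and the Satb1 window is the lowest in coordinate of its 5 listed starts. Because the peaks are in mm9, these windows could not be placed relative to any peak.
Bach2 promoter: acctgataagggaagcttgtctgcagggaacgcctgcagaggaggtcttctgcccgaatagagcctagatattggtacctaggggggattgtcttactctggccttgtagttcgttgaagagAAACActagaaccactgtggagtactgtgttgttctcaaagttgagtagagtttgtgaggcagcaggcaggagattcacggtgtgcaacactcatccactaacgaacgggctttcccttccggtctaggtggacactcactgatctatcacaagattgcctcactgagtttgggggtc
Satb1 promoter: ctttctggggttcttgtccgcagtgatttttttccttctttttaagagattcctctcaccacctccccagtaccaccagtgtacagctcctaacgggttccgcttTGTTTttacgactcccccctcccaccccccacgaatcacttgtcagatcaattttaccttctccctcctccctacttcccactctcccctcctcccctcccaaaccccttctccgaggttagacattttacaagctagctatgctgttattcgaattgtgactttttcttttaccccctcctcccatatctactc
The printed windows have a GC content of 50.3% for Bach2 and 49% for Satb1, against a median of 52.7% over 32851 listed promoters. The single Bach2 window and 3 of the 5 Satb1 windows hold TGTTT on either strand, and 2 of these 3 overlap and hold the same match. Of all listed promoters, 50.5% hold TGTTT. The longer forms TGTTTAC and TGTTTGC, each of which contains TGTTT, occur on either strand in 3.65% and 5.07% of all promoters and in none of these 6 windows.

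The lists differ in length, and this sets how many regions each can show. A384T replicates 1, 2 and 3 had 18147, 6657 and 2050 peaks, and WT replicates 1, 2 and 3 had 20723, 1746 and 3905. Unique ChIP tags ranged between 18255500 and 24493840 in A384T libraries and between 17520951 and 25386770 in WT libraries. In both genotypes replicate 1 had 51 bp tags and the most redundant ones (30% in A384T and 39% in WT), whereas the others had 49 bp tags and 18 to 21% redundancy. The part of tag length and redundancy in the counts at the loci was not tested. Fold enrichment, pileup and q-value are the authors' values for each peak and serve here to describe peaks inside their own list. A region without a peak in a list only failed to pass the cutoff there.

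FoxP3 peaks were dense at Bach2 in all 6 libraries. There were 27, 21 and 6 peaks in A384T replicates 1, 2 and 3, and 52, 10 and 16 in WT replicates 1, 2 and 3. Among the 2996 windows of 500 kb that held a peak in any library, Bach2 held more peaks than 99.0, 99.5 and 98.9% of windows in the A384T libraries and more than 99.3, 99.6 and 99.3% in the WT libraries. The median window held 4, 1 and 0 peaks in A384T and 4, 0 and 0 in WT, and the fullest held 82, 94 and 30 in A384T and 149, 56 and 95 in WT. Bach2 was thus near the top of every library, with between 11 and 33 windows holding as many peaks or more.

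Satb1 had 10, 11 and 2 peaks in A384T replicates 1, 2 and 3, and 29, 5 and 4 in WT replicates 1, 2 and 3. Its count exceeded that of 92.5, 98.8 and 92.2% of 4733 windows of 250 kb in the A384T libraries, and of 98.9, 98.7 and 94.9% in the WT libraries. Satb1 was therefore also among the fuller windows, though less far up than Bach2 in each library. No library had a peak within 100 kb outside the Satb1 window, and at most 3 lay within 100 kb of the Bach2 window. The closest lay 2.15 kb above the Bach2 window in WT replicate 1 and 2.37 kb above it in A384T replicate 1. How often other windows have such flanks was not computed.

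Relative to list length, the genotypes overlapped at both loci. At Bach2 the A384T lists held 1.49, 3.15 and 2.93 peaks per 1000 list peaks, and the WT lists 2.51, 5.73 and 4.10. The means were 2.52 ± 0.904 in A384T and 4.11 ± 1.61 in WT (SD, n = 3 each), a difference of -1.59 (two-sided exact permutation test, p = 0.3, where groups of 3 cannot give less than 0.1). A384T was lower in each pair of same-numbered libraries, and with the replicate number as a block the exact p was 0.25, the smallest that 3 pairs allow. WT replicate 2, the shortest list, had the highest value, and without it the difference was -0.780 (two-sided exact permutation test, p = 0.6). Without A384T replicate 1 the difference was -1.07 (two-sided exact permutation test, p = 0.6). Leaving out A384T replicate 2, A384T replicate 3 or WT replicate 3 gave p = 0.3, 0.3 and 0.4 in the two-sided exact permutation test. The overlap came from WT replicate 1: without it all 3 A384T values lay under both WT values, with a difference of -2.39 (exact permutation, two-sided, p = 0.1, its lowest possible value). Because the library that made the overlap was the one removed, this separation and its p follow from that choice. They cannot decide whether the genotypes differ. Within the 49 bp libraries, which also lack WT replicate 1, the groups did not overlap either. The difference was -1.87 (two-sided exact permutation test, p = 0.333, again the lowest possible). The 51 bp tags were used in only 1 library of each genotype. How often genome windows do not overlap in these smaller sets of libraries was not computed, so no share stands beside them.

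At Satb1 the corresponding densities were 0.551, 1.65 and 0.976 peaks per 1000 in A384T and 1.40, 2.86 and 1.02 in WT. They averaged 1.06 ± 0.555 in A384T and 1.76 ± 0.972 in WT (SD, n = 3 each), a difference of -0.703 (two-sided exact permutation test, p = 0.4). A384T replicate 2 lay above WT replicates 1 and 3, and without WT replicate 2 the difference was -0.152. It was -0.630 within the 49 bp libraries. A384T was the lower in each same-numbered pair of these same lists, at an exact p of 0.25 with the replicate block. The third pair was nearly equal, at 0.976 in A384T and 1.02 in WT, from 2 and 4 peaks. Over the whole genome, the groups did not overlap in either direction in 7.94% of 500 kb windows and 7.08% of 250 kb windows with at least 3 peaks, and neither locus was among them.

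Cutting every list to its 1746 strongest peaks by -log10 q removed the difference in length. Bach2 then held 7, 9 and 5 peaks in A384T and 10, 10 and 6 in WT, with means of 7 ± 2 in A384T and 8.67 ± 2.31 in WT (SD, n = 3 each; two-sided exact permutation test, p = 0.5). Satb1 held 1, 3 and 2 in A384T and 3, 5 and 1 in WT, with means of 2 ± 1 in A384T and 3 ± 2 in WT (SD, n = 3 each; two-sided exact permutation test, p = 0.7). The groups overlapped at both loci. At Satb1, replicate 3 of A384T was here above replicate 3 of WT. At Bach2 the sign of the difference depended on the length chosen, since lists of 1000 peaks gave 0.333.

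**Figure D1:**
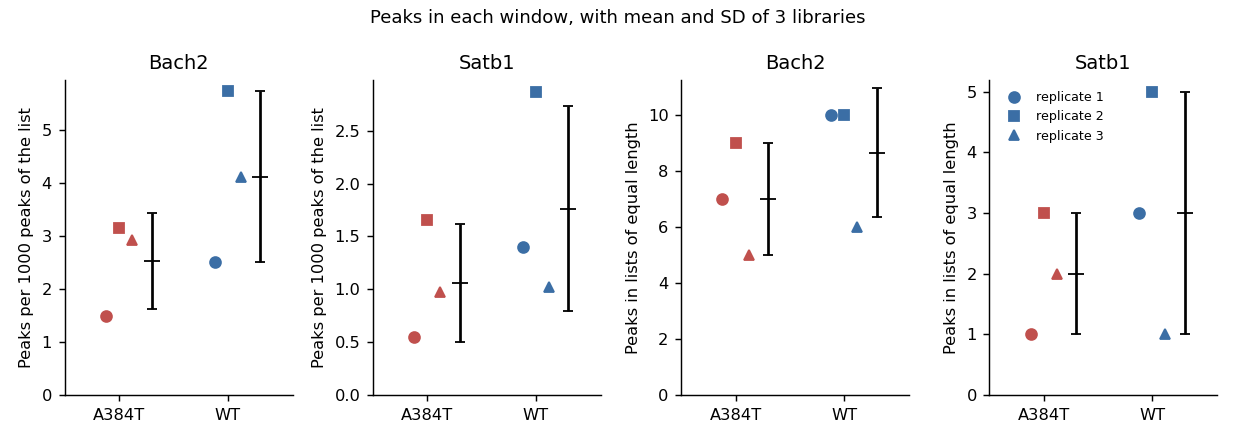
Peaks in the Bach2 and Satb1 windows for each library, per 1000 peaks of its list (left pair) and in lists cut to 1746 peaks (right pair), with A384T in red and WT in blue and bars giving the mean and SD of 3 libraries. The 2 genotypes overlap in each panel, and WT replicate 2 has the highest density at both loci.

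Bach2 peaks were wider than the usual peak of every list, and in 4 of the 6 also more enriched. Their median fold enrichment was 15.0, 13.2 and 11.2 in A384T, where the whole lists had 11.8, 11.6 and 10.3, and 15.2, 10.7 and 10.1 in WT, where the whole lists had 11.5, 11.03 and 11.004. Bach2 thus lay above its list in every A384T library but only in replicate 1 of WT. Median widths at Bach2 were 348, 299 and 223 bp in A384T (whole lists 264, 214 and 180 bp) and 331.5, 271 and 225.5 bp in WT (whole lists 261, 190 and 211 bp), above the list in each case.

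Satb1 peaks stood lower in their lists than Bach2 peaks. The median position by -log10 q, as a percentile of the list, was 51.4, 30.5 and 53.8 in A384T and 35.2, 45.2 and 28.3 in WT. At Bach2 the same medians were 64.8, 60.0 and 68.3 in A384T and 65.5, 60.9 and 43.9 in WT, higher than at Satb1 in each library. The best Bach2 peak stood at place 143, 103 and 194 of its list in A384T and at 74, 86 and 118 in WT. For Satb1 the best peak stood at place 1228, 842 and 904 in A384T and at 881, 726 and 425 in WT, well behind Bach2 in every list. The best place was taken from more peaks at Bach2 than at Satb1 in each library, and the part of this was not tested.

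As over the genome, the regions at both loci were mostly found in both genotypes where they were found repeatedly. Of the 52 Bach2 regions, 28 (53.8%) had a peak in both genotypes, none only in A384T and 24 only in WT. Of the 30 Satb1 regions, 13 (43.3%) had one in both, 1 only in A384T and 16 only in WT, against 56.0% in both genotypes over all regions of the genome. Another 42.4% of all regions had a peak in 1 library only, so repeated regions were mostly in both genotypes there too. The regions seen only in WT largely came from 1 library: WT replicate 1, the longest list, was the sole source of 23 Bach2 and 16 Satb1 regions. Regions seen only in the replicate 1 lists made up 59.6% at Bach2 and 63.3% at Satb1, where the genome had 71.1%.

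Regions repeated in one genotype and absent from the other were about as rare at the loci as elsewhere. Of the 23 regions at the loci with a peak in at least 2 A384T libraries, 0 lacked a WT peak, against 3.10% of such regions over the genome. Of the 20 regions with a peak in at least 2 WT libraries, 1 lacked an A384T peak, against 5.78% over the genome. It was chr4:32481912-32482180 at Bach2, with a fold enrichment of 17.5 in WT replicate 1 and 11.01 in WT replicate 2. Without WT replicate 1 the count of A384T regions with no WT peak was 9, while over the genome it was 3104 in place of 189. The count of WT regions with no A384T peak was 0 without WT replicate 1 (3 over the genome, in place of 216) and 0 without WT replicate 2 (213 over the genome). It was 2 without A384T replicate 1 (636 over the genome) and 3 without A384T replicate 2 (305 over the genome). Requiring all 3 libraries gave 8 A384T regions, of which 2 were not in all 3 WT lists (49.1% over the genome), both missing from WT replicate 2. It gave 11 WT regions, of which 5 were not in all 3 A384T lists (37.5% over the genome), all missing from A384T replicate 3. These are the shortest lists of their genotypes.

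**Figure D2:**
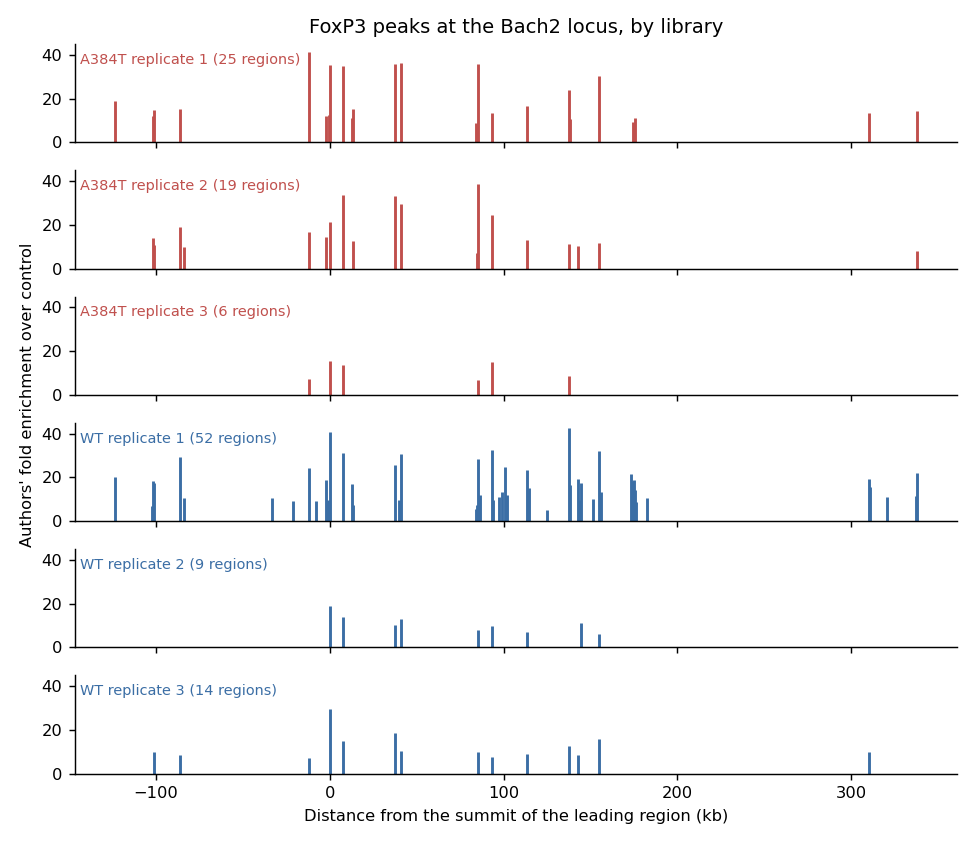
Bach2 regions of each library, A384T above WT, with the distance from the summit of the leading region in kb on the horizontal axis and the authors' fold enrichment over control on the vertical axis. The peaks of the short lists fall on positions also held by the long ones, and A384T replicate 3 has 6 regions where WT replicate 1 has 52.

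Regions with a peak in at least 4 libraries numbered 12 at Bach2 and 4 at Satb1, and 4 and 2 of them had a peak in all 6. The share present in all 6 was 7.32% over both loci and 3.88% over the genome. Across these 16 regions the summits of different libraries lay within a median of 62 bp of each other, with a range of 29 to 424 bp. At Bach2 the regions spanned most of the window with a gap of 127 kb near its upper end, and at Satb1 the largest gap was 26.7 kb.

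The leading Bach2 region, chr4:32337196-32338375, was among the strongest peaks of each list. Its fold enrichment was 35.5, 21.4 and 15.3 in A384T replicates 1, 2 and 3, and 40.8, 18.8 and 29.6 in WT replicates 1, 2 and 3. These averaged 24.1 ± 10.4 in A384T and 29.7 ± 10.97 in WT (SD, n = 3 each), so the ranges overlapped. It was the strongest Bach2 region by -log10 q in A384T replicate 3 and in all 3 WT libraries. In A384T replicate 1 the region 11.8 kb below it led instead, and in A384T replicate 2 the region 85.3 kb above it. WT replicates 2 and 3 each had 2 peaks in the leading region, with second summits at chr4:32338062 and chr4:32338068, where every other list had 1 wider peak.

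To compare libraries on one footing, each was ranked by -log10 q within the 962 regions present in all 6 lists, with 100 as the strongest. The leading region of each locus was the one with the highest mean of these same ranks over all 6 libraries, so it was not fixed beforehand. The leading Bach2 region stood at 85.6, 86.5 and 84.1 in A384T and at 92.5, 91.2 and 88.1 in WT. All 3 A384T values lay under all 3 WT values. The means were 85.4 ± 1.22 in A384T and 90.6 ± 2.24 in WT (SD, n = 3 each), a difference of -5.20, for which the two-sided exact permutation test gave p = 0.1, the smallest it can give. Of the 962 regions, 13.3% had all A384T values lower and 11.5% all A384T values higher, so a region without overlap was common. Ranked by fold enrichment, the same region stood at 73.8, 55.9 and 77.0 in A384T and at 72.8, 86.1 and 92.5 in WT, and the groups overlapped.

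The region 7.8 kb above the leading one, chr4:32344757-32345714, was nearly as strong. Fold enrichment here was 35.0, 33.7 and 13.9 in A384T and 31.3, 13.9 and 15.2 in WT. By -log10 q it ranked at 87.4, 85.0 and 72.6 in A384T and at 86.0, 85.0 and 54.7 in WT, with the groups overlapping. By fold it ranked at 72.0, 86.7 and 71.5 in A384T and at 46.5, 63.0 and 50.4 in WT, where every A384T value was higher. By fold, 7.59% of the 962 regions had all A384T values higher and 8.32% all lower.

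The region 85.3 kb above the leading one, chr4:32422559-32423096, was singled out after its values were seen. Its ranks among the 962 shared regions overlapped between genotypes. By pileup its place among the Bach2 regions was higher in the A384T libraries, though these places are out of different numbers of regions. Its fold enrichment was 35.9, 38.5 and 6.75 in A384T and 28.4, 7.94 and 10.1 in WT. By pileup it stood at place 1, 2 and 2 among the 25, 19 and 6 Bach2 regions of A384T replicates 1, 2 and 3. In WT replicates 1, 2 and 3 it stood at place 5, 6 and 7 among 52, 9 and 14, and no share of other regions with such places was computed. By -log10 q it stood at place 2, 1 and 5 in A384T and at 6, 6 and 7 in WT, and by fold it was the weakest of the 6 regions of A384T replicate 3, so the third A384T library held a high place by pileup only. Its rank among the 962 regions was 87.7, 90.6 and 45.2 in A384T and 50.5, 13.5 and 8.06 in WT. The means were 74.5 ± 25.5 in A384T and 24.0 ± 23.1 in WT (SD, n = 3 each), and the groups overlapped because A384T replicate 3 lay below WT replicate 1.

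Set against the leading Bach2 region of the same library, the pileup at this region was 106, 84.7 and 89.2% in A384T and 64.3, 44.0 and 41.1% in WT. It averaged 93.3 ± 11.1% in A384T and 49.8 ± 12.6% in WT (SD, n = 3 each), with every A384T library above every WT library. Relative to the same region, 11.3% of the other 961 shared regions had all A384T values higher and 11.1% all lower. The control background implied by pileup and fold was 8.92 at this region in A384T replicate 3, whose list median was 2.97. It was 4.58 and 2.30 in A384T replicates 1 and 2, and 4.42, 4.00 and 2.77 in WT replicates 1, 2 and 3. The part of the control background in the ranks was not tested. This region was singled out after its values were seen.

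**Figure D3:**
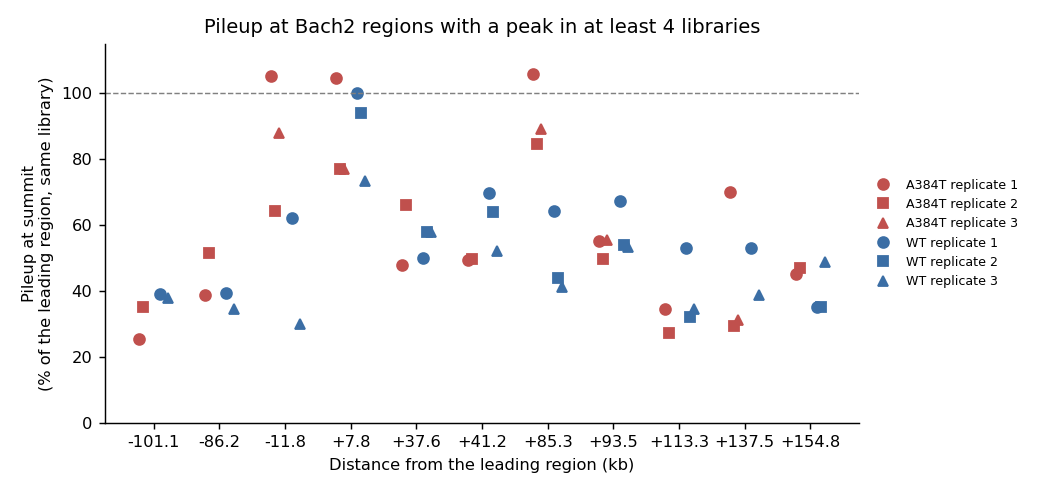
Pileup at the summit of the 11 other Bach2 regions with a peak in at least 4 libraries, as a percentage of the leading region of the same library (dashed line at 100), with A384T in red and WT in blue. At +85.3 kb, singled out after its values were seen, the A384T libraries lie at 84.7 to 106% and the WT libraries at 41.1 to 64.3%. All A384T values were likewise higher at 11.3% of the other 961 shared regions. The groups also lie apart at -11.8 kb (A384T higher) and at -101.1 and +41.2 kb (A384T lower). Regions with fewer than 6 symbols lack a peak in some library.

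The remaining Bach2 region shared by all libraries, chr4:32430664-32431167, lay 93.5 kb above the leading one. Fold enrichment reached 13.3, 24.7 and 14.8 in A384T and 32.4, 9.70 and 7.49 in WT. The ranks of 17.4, 50.9 and 59.2 in A384T and 59.6, 37.8 and 7.02 in WT overlapped. Its pileup relative to the leading region overlapped too, at 53.5 ± 3.28% in A384T and 58.2 ± 7.84% in WT (SD, n = 3 each).

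The region 11.8 kb below the leading one, chr4:32325381-32326961, was present in all 3 A384T lists and in 2 WT lists. Its peaks had a fold enrichment of 41.3, 16.9 and 7.39 in A384T, against 24.2 and 7.42 in WT replicates 1 and 3. The pileup there was 105, 64.3 and 87.8% of the leading region in A384T and 62.2 and 30% in WT replicates 1 and 3. All A384T values were higher, by a narrow margin between A384T replicate 2 and WT replicate 1, as at 15.2% of the 433 other regions present in the same libraries. The control background here was 7.93 in A384T replicate 3, and its part in these values was not tested. A384T replicates 1 and 2 resolved a second summit here, at chr4:32326308 and chr4:32326259, where WT replicate 1 had a single peak of 1486 bp.

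Of the Bach2 regions present in 5 lists, chr4:32474805-32475243, 137.5 kb above the leading one, was likewise missing only from WT replicate 2. Its fold enrichment was 23.8, 11.1 and 8.48 in A384T and 42.5 and 12.6 in WT replicates 1 and 3. The other 4 such regions were missing only from A384T replicate 3. At 37.6 kb above (chr4:32374752-32375434), fold enrichment was 36.0 and 33.2 in A384T replicates 1 and 2, and 25.6, 10.4 and 18.6 in WT. Both A384T values were higher than every WT value, and the share of other regions like this was not computed. The pileup there, relative to the leading region, did overlap. It was 47.9 and 66.2% in A384T replicates 1 and 2, and 50, 58.0 and 57.8% in WT. At 41.2 kb above (chr4:32378330-32378937), fold enrichment was 36.3 and 29.6 in A384T replicates 1 and 2, and 30.8, 12.8 and 10.2 in WT, with overlap. The pileup at 41.2 kb above was 49.5 and 49.7% of the leading region in A384T replicates 1 and 2, and 69.7, 64.0 and 52.2% in WT, lower in both A384T libraries, as at 37.3% of the 531 other regions present in the same libraries. Both regions were strong in A384T replicate 2 and yet had no peak in A384T replicate 3.

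At 113.3 kb above the leading region (chr4:32450366-32451078) the fold enrichment was lower, at 16.7 and 13.2 in A384T replicates 1 and 2, and 23.4, 7.29 and 8.99 in WT. At 154.8 kb above (chr4:32491998-32492984), it was 30.5 and 11.8 in A384T replicates 1 and 2, and 32.0, 6.36 and 15.8 in WT. The pair of regions present in 4 lists lay at the lower end of the window, in replicates 1 and 2 of A384T and replicates 1 and 3 of WT. Fold enrichment 101.1 kb below the leading region (chr4:32236070-32236664) averaged 12.8 ± 3.08 in A384T and 13.8 ± 5.07 in WT (SD, n = 2 each). At 86.2 kb below (chr4:32250966-32252280) it averaged 17.1 ± 2.52 in A384T and 19.05 ± 14.9 in WT (SD, n = 2 each). In all 4 of these the fold enrichment of the groups overlapped. The pileup relative to the leading region did not overlap at 101.1 kb below, where it averaged 30.3 ± 6.72% in A384T and 38.4 ± 0.918% in WT (SD, n = 2 each), but A384T was likewise lower without overlap at 42.4% of the 939 other regions present in the same libraries. The remaining 40 Bach2 regions had a fold enrichment of 7.35 to 18.8 in A384T replicates 1 and 2 and of 5.17 to 24.7 in WT replicate 1, and A384T replicate 3 had a peak in none of them.

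**Figure D4:**
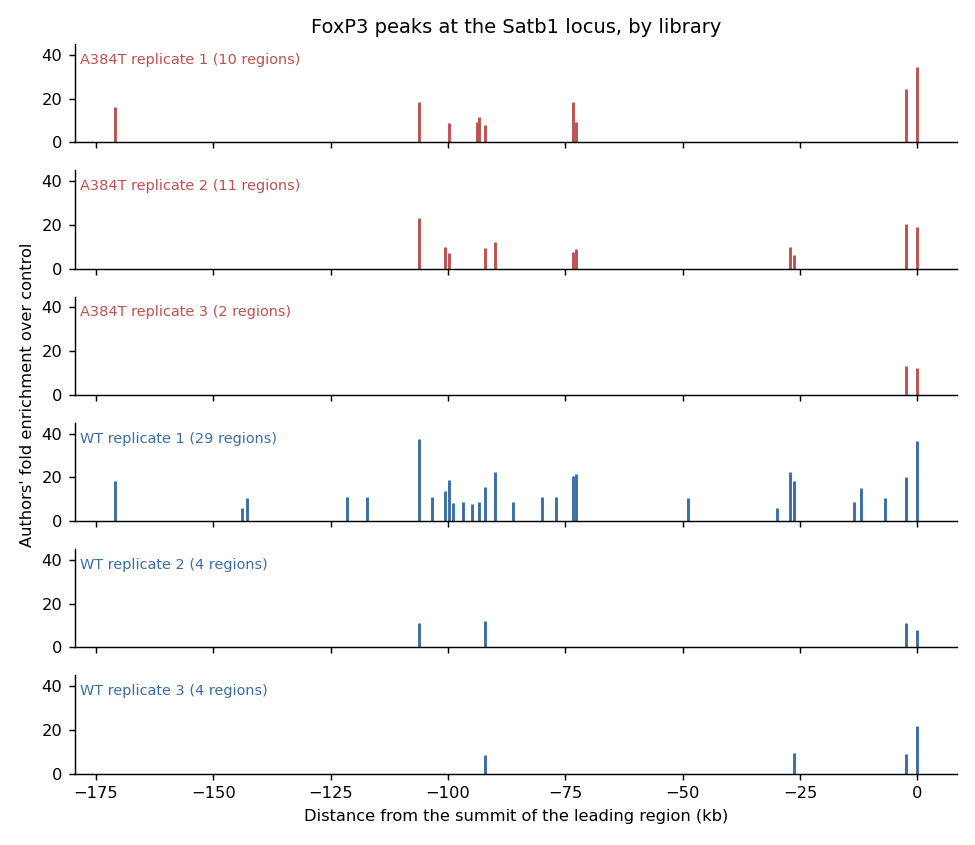
Satb1 regions of each library, A384T above WT, with the distance from the summit of the leading region in kb on the horizontal axis and the authors' fold enrichment over control on the vertical axis. The leading region and the one 2.5 kb below it are present in every library, and A384T replicate 3 has these 2 regions only.

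At Satb1 a pair of regions at the upper end of the window had the highest pileups in all 6 libraries. By -log10 q the region 106.2 kb below stood second in A384T replicate 2, and the region 92.2 kb below stood second in WT replicate 2, ahead of the leading one. The leading one, chr17:52045609-52046355, had a fold enrichment of 34.4, 19.1 and 12.4 in A384T and 36.8, 8.08 and 22.0 in WT. It averaged 22.0 ± 11.3 in A384T and 22.3 ± 14.3 in WT (SD, n = 3 each). Its rank among the 962 regions was 46.5, 40.1 and 41.8 in A384T and 38.2, 27.7 and 61.9 in WT, so the A384T values lay within the WT range. The mean rank was 42.8 ± 3.33 in A384T and 42.6 ± 17.5 in WT (SD, n = 3 each), a difference of 0.191 (two-sided exact permutation test, p = 1.0). Without WT replicate 3 the difference was 9.84, and it was -7.25, -2.02 and -1.66 without WT replicate 2, WT replicate 1 and A384T replicate 1.

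The region 2.5 kb below it, chr17:52043190-52043670, had a fold enrichment of 24.6, 20.2 and 13.0 in A384T and 20.3, 11.2 and 9.28 in WT. Its rank was 24.2, 28.3 and 36.9 in A384T and 27.3, 39.6 and 4.47 in WT, again overlapping. The pileup there was 83.3, 79.7 and 89.2% of the leading Satb1 region in A384T and 119, 92.6 and 60.7% in WT. The leading region thus had the higher pileup in every A384T library and in WT replicates 2 and 3, and the lower one in WT replicate 1.

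Further from this pair, chr17:51953533-51954197 lay 92.2 kb below the leading region and was missing only from A384T replicate 3. Its fold enrichment was 7.73 and 9.48 in A384T replicates 1 and 2, and 15.7, 12.01 and 8.75 in WT. Its summits lay up to 424 bp apart, and WT replicate 2 had 2 peaks in it. The region chr17:51939573-51939919, 106.2 kb below the leading one, had a fold enrichment of 18.3 and 23.2 in A384T replicates 1 and 2, and 37.8 and 11.4 in WT replicates 1 and 2. The groups overlapped at both regions. The other 26 Satb1 regions had a fold enrichment of 6.09 to 18.5 in A384T replicates 1 and 2 and of 6.03 to 22.6 in WT replicate 1.

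**Figure D5:**
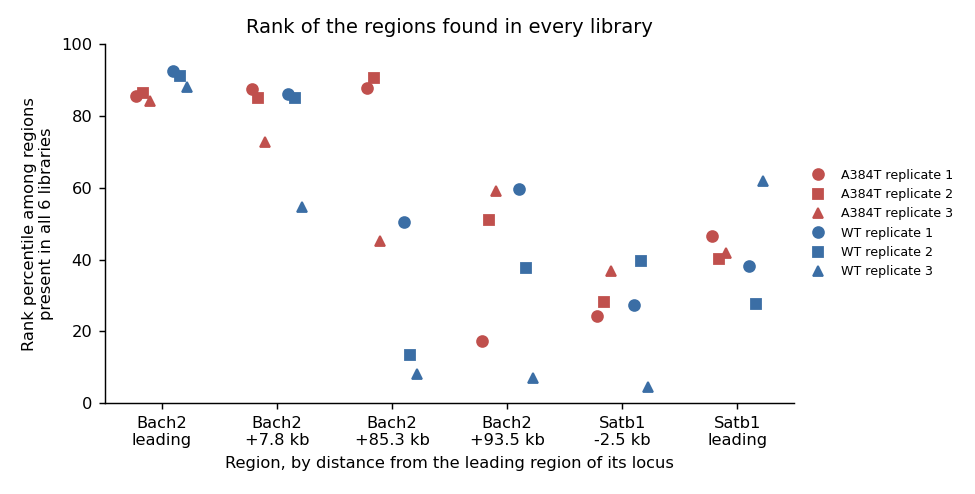
Rank percentile by -log10 q of the 6 Bach2 and Satb1 regions present in every library, among the 962 such regions of the genome, with A384T in red left of WT in blue and 1 symbol per replicate. The genotypes separate at the leading Bach2 region (84.1 to 86.5 in A384T, 88.1 to 92.5 in WT) and overlap at the other 5. Of the 962 regions, 13.3% had all A384T values lower and 11.5% all A384T values higher. Ranked by fold enrichment, the genotypes overlap at the leading Bach2 region too.

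The windows whose counts over the 6 libraries were most like those of each locus were found by the Euclidean distance of log2(count + 1). For Bach2 the closest was chr14:122000001-122500000, with 32, 26 and 6 peaks in A384T and 53, 7 and 20 in WT, at a distance of 0.669. It was followed by chr3:130500001-131000000 (0.703) and chr12:74500001-75000000 (0.709). For Satb1 the closest was chr14:79750001-80000000, with 12, 8 and 2 peaks in A384T and 22, 4 and 3 in WT, at a distance of 0.742. The next were chr8:114000001-114250000 (0.819) and chr2:3500001-3750000 (0.835). These windows share the libraries and their list lengths with the loci.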

How the data were processed

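FoxP3 ChIP DNA from A384T and WT Treg cells was sequenced in 3 libraries per genotype, and the sample titles gave genotype and replicate number. Bowtie2, MACS2 and the build mm9 are named in the submitters' processing notes. Per the file headers, peaks were called per library with MACS 2.1.0.20140616 against a control at a q-value cutoff of 1e-10. The deposited lists give the pileup at the summit (a signal), the -log10 p-value and -log10 q-value, and the fold enrichment (a ratio to the local control). The input libraries were not analysed here as samples.

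Peaks outside the autosomes, X and Y were dropped from the deposited lists, and the others were joined by an overlap of 1 bp. Rank percentiles were taken by -log10 q. Where a list had several peaks in a region, the strongest stood for it. The control background was computed as (pileup + 1)/fold - 1. Genotypes were compared by two-sided exact permutation tests over the 20 ways to split 6 libraries into 3 and 3. Deviations from the group means over the 962 shared regions correlated between same-numbered libraries (r = 0.435, 0.123 and 0.374), the second weakly. Between differently numbered libraries r was -0.354 to 0.019. Exact sign flips within numbers were therefore also run, though the labels give a replicate number and no pairing. Code was tested on simulated lists. Python 3.11.15, numpy 2.4.6, pandas 2.3.3 and matplotlib 3.10.9 were used.

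The loci, the lists and the tests were chosen with earlier results of these data known. Regions were named when present in at least 4 libraries, when present in at least 2 libraries of a single genotype and in no library of the other, or when leading their locus. A list of other genes of resting T cells (Tcf7, Lef1, Foxp1, Foxo1, Klf2, Ikzf1, Ets1 and Runx1) was not analysed, because the only gene table here is in GRCm38.p6, not mm9. For the same reason no peak is assigned to a promoter, exon or intron, and no peak sequence is printed.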

Additional observations from a re-analysis of the deposited data

How the results depend on the processing

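For the 6 tested values, 70 of 76 alternatives kept the sign. The side of the threshold could not change, since no p could fall under 0.1. At Bach2 the difference in lists of equal length was 0.333 with lists of 1000 peaks. Leaving out each library in turn gave -2.39 to -0.780 for Bach2 peaks per 1000, -3 to -0.667 for Bach2 in equal lists, -6.43 to -4.25 for the leading Bach2 rank, -1.07 to -0.152 for Satb1 peaks per 1000, -2 to 0 for Satb1 in equal lists and -7.25 to 9.84 for the leading Satb1 rank. The last was -3.88 within the 49 bp libraries, where the leading Bach2 rank was -4.37. With the replicate block, the leading Bach2 rank kept its difference of -5.20 at an exact p of 0.25. This is the smallest that 3 pairs allow, so no call could change.

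The count of regions in at least 2 A384T and no WT libraries was 0 (189 over the genome), with 0 to 9 over the libraries left out (48 to 3104) and 2 when summits within 200 bp were joined (299). That in at least 2 WT and no A384T libraries was 1 (216), with 0 to 3 over the libraries left out (3 to 636), 0 at a -log10 q of at least 20 (129) and 3 with summits within 200 bp (240). The cause of these changes was not tested. A peak missing from a list of 1746 or 2050 peaks is not shown to be unbound, and pileup and fold carry no scale shared between libraries.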
